A study of Mus musculus with 24 samples.

Results

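Fos, Fosb, Fosl1, Fosl2, Jun, Junb, Jund, Atf3 and Maff are 9 genes for transcription factors of the AP-1 and small Maf kind, out of 18193 genes measured in mouse cerebral cortex. They were chosen by symbol: a probe set had to be annotated to exactly 1 of these symbols, and where a gene had more than 1 such probe set, the one with the highest mean over the 24 arrays was used. All 9 genes were found, through 13 probe sets, and none was removed for a low value.

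Sleep and waking were compared in adult heterozygous aldh1l1 – eGFP-L10a mice, all of which carry a tagged ribosomal protein driven by the promoter of Aldh1l1, a gene used in astrocytes. Tagged ribosomes were pulled out of cortex homogenate with their RNA, which gave the bound fraction, and the RNA left behind gave the unbound fraction, in which neurons and the other glia are represented. The bound fraction was hybridised for single animals, 6 after sleep deprivation, 6 in waking and 6 in sleep; the unbound fraction was hybridised as pools of 3 animals, 2 pools for each of the same 3 states. Sleep-deprived mice had been awake for most of the dark phase by themselves and were then kept awake with unfamiliar objects for 4 h of the light phase. Waking mice were killed in the dark at about 3 to 5 am after at least 70% of the preceding hours awake, and sleeping mice in the light at about 3 to 5 pm after at least 75% of them asleep. Waking and sleep therefore differ in clock time as well as in state. Sleep deprivation took place in the light and waking mice were killed in the dark. The wake conditions thus also differ in clock time, which cannot be told apart from how waking came about. The tag marks every cell in which the promoter is active, and the promoter defines the targeted cells in all groups alike.

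AP-1 is a pair of basic leucine zipper proteins, most often one of the Fos family with one of the Jun family, that binds a short palindrome in the control regions of many genes. Fos proteins need a partner from another family, whereas Jun proteins also pair among themselves, and Atf3 pairs with Jun proteins or with itself. The small Maf proteins, MafF among them, have the zipper but no activation domain of their own, and act as partners of factors such as Nrf2 or as repressive pairs. In cortex, Fos is widely used as a marker of recently active neurons, because its transcription starts within minutes of a stimulus through Srf and CREB bound at its promoter.

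The promoters of Fos, Fosb and Maff, the members that were higher in both wake conditions in the bound fraction, are shown beside that of Jun, which was not. Each window runs from 250 bases before to 50 bases after a transcription start annotated by RefSeq on mouse build GRCm38.p6, and capitals mark matches to a searched motif. Fos lies at chr12:85473640-85473939 (plus strand), Fosb at chr7:19309996-19310295 (minus strand), the second annotated start of Maff at chr15:79347270-79347569 (plus strand) and Jun at chr4:95052173-95052472 (minus strand).
Fos: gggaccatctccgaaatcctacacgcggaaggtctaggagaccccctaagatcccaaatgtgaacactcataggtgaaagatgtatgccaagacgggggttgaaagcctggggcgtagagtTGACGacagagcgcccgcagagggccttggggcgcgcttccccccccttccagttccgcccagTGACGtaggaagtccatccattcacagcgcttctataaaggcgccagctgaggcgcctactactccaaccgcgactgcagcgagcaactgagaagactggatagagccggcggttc
Fosb: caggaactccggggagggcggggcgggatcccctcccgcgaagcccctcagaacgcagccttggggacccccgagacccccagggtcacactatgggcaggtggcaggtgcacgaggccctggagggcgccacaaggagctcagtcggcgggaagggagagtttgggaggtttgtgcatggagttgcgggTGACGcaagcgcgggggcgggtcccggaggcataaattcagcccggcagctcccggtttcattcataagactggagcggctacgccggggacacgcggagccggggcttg
Maff: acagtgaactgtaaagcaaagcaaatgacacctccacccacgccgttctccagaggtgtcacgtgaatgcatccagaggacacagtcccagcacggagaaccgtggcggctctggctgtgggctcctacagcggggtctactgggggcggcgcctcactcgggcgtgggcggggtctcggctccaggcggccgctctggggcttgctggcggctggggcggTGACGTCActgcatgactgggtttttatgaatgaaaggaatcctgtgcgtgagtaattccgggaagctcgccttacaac
Jun: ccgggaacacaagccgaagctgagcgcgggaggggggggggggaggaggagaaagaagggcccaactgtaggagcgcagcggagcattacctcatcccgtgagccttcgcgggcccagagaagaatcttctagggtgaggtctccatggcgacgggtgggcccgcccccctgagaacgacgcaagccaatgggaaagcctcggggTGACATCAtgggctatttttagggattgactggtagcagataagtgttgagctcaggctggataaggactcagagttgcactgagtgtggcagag

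The motifs were searched on both strands. TGACG, the core of the cAMP response element to which CREB binds, was found in the windows of 5 of the 8 members that had one, namely Fos, Fosb, Junb, Atf3 and Maff. By window, it was found in 6 of the 10 windows of the 8 members, against 20.8% of 32851 windows of all genes. With the start counted as 0, Fos held it at -129 and -66, and Fosb at -60. The longer palindrome TGACNTCA, which AP-1 pairs with ATF members bind, was found in Maff (TGACGTCA at -29 of the window shown, which contains both of its TGACG matches, and TGACATCA at -45 of the third start) and in Jun (TGACATCA at -45), against 8.83% of all windows. The AP-1 palindrome TGANTCA, present in 7.81% of windows, and the CArG box of Srf, present in 1.63%, had no match in any of the 10 member windows. Sites more than 250 bases before a start were not searched, so that these promoters cannot be said to lack either motif. Maff had 3 annotated starts. The first had no match to any searched motif, and the second, which held TGACGTCA, is the one shown. Fosl1 had no window.

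Values are log2 RMA values, the logarithm of array brightness, so that a difference of 1 is a factor of 2, and fold changes are these differences turned into factors. Between states or fractions, each difference is given relative to the median of all genes, with its standard error (SE) from the fit, because the median gene itself differed between groups: by 0.11 and 0.09 for sleep deprivation and waking against sleep in the bound fraction, by 0.18 and 0.30 for the same in the unbound fraction, and by 0.16 between fractions. A gene was called where limma's Benjamini-Hochberg adjusted p over all 18193 genes was under 0.05. The adjusted p belongs to the difference as fitted, before the median of all genes was taken off. Levels of different genes are not compared, since probe sets differ in how they respond. In tissue fractions, more cells of a kind and more RNA per cell cannot be told apart.

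For astrocyte and neuron markers, the fractions matched their labels. Aldh1l1, the gene whose promoter drives the tag, was 13.2-fold higher in the bound fraction than in the unbound one (log2 3.72, SE 0.11, adjusted p = 7.44e-18), and 13 of 13 astrocyte markers were higher in it, while 12 of 13 neuron markers were lower. Also higher in it were 5 of 5 meningeal and fibroblast markers and 2 of 6 endothelial markers. So was 1 marker each of the oligodendrocyte, the pericyte and smooth muscle, and the ependymal and choroid plexus lists. Lower were 5 of 6 oligodendrocyte, 4 of 7 microglia, 3 of 5 pericyte and smooth muscle and 1 of 6 endothelial markers. So were 2 of 3 oligodendrocyte precursor and 2 of 2 red blood cell markers. Of all genes 42.2% were called higher and 27.2% lower. Neuron markers were still measured in the bound arrays, where the log2 of their summed level was 14.58 to 14.82 after sleep deprivation, 14.44 to 14.87 in waking and 14.58 to 14.86 in sleep, against 15.94 to 16.21 in the unbound pools. Array values have no zero, so that no marker can be said to be absent. Between states, the bound fraction had 1 of 13 astrocyte markers higher after sleep deprivation than in sleep (Gjb6), 1 of 13 neuron markers lower (Stmn2) and 1 of 7 microglia markers higher (Itgam). Waking against sleep there had 2 of 13 astrocyte, 0 of 13 neuron, 2 of 7 microglia and 1 of 6 endothelial markers higher, and Kcnj8, 1 of 5 pericyte and smooth muscle markers, was lower in both wake conditions. Of 2 red blood cell markers, Hba-a1 and Alas2 were higher after sleep deprivation and Hba-a1 in waking, with log2 summed levels of 5.27 to 5.73 after sleep deprivation, 4.93 to 5.39 in waking and 4.59 to 5.06 in sleep. The summed level of the 5 ependymal and choroid plexus markers varied widely between bound arrays, from 10.20 to 14.22 after sleep deprivation, 9.43 to 14.43 in waking and 11.72 to 14.30 in sleep, with list medians of -1.29 and -0.94 against sleep and no marker called against sleep. Bound sleep deprivation against waking had 1 of these 5 markers (Foxj1) and 1 of 7 microglia markers (Tmem119) lower. No other marker was called in that comparison. In the unbound pools, waking against sleep had 1 of 13 astrocyte markers (Gjb6) and 1 of 6 endothelial markers (Flt1) higher. The part of these markers in the results was not tested. Exactly equal values of a gene were found in every pair of arrays of one group and in none of 228 pairs from different groups. A normalization run made per group would give that pattern, and such a run cannot be told apart from the group.

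Among the bound arrays, 4 of the 9 genes were higher after sleep deprivation than in sleep, Fos, Fosb, Fosl2 and Maff, and none was lower. Of all genes 12.3% were called higher and 2.02% lower. In waking, 3 of the 9 were higher than in sleep, Fos, Fosb and Maff, and none was lower; of all genes 9.07% were called higher and 2.14% lower. Fosb and Maff were also higher after sleep deprivation than in waking, 2 of 9 beside 4.17% of all genes. The median of the 9 differences was 0.45 for sleep deprivation, 0.26 for waking and 0.19 between the wake conditions, where the median of all genes is 0 by construction. Arrays of the groups did not overlap, with the wake condition higher, for 4 members after sleep deprivation (Fos, Fosb, Fosl1 and Maff, beside 7.44% of all genes) and for 3 in waking (Fos, Fosb and Maff, beside 6.01%). Sleep deprivation and waking were each set against the same sleep arrays.

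**Figure D1:**
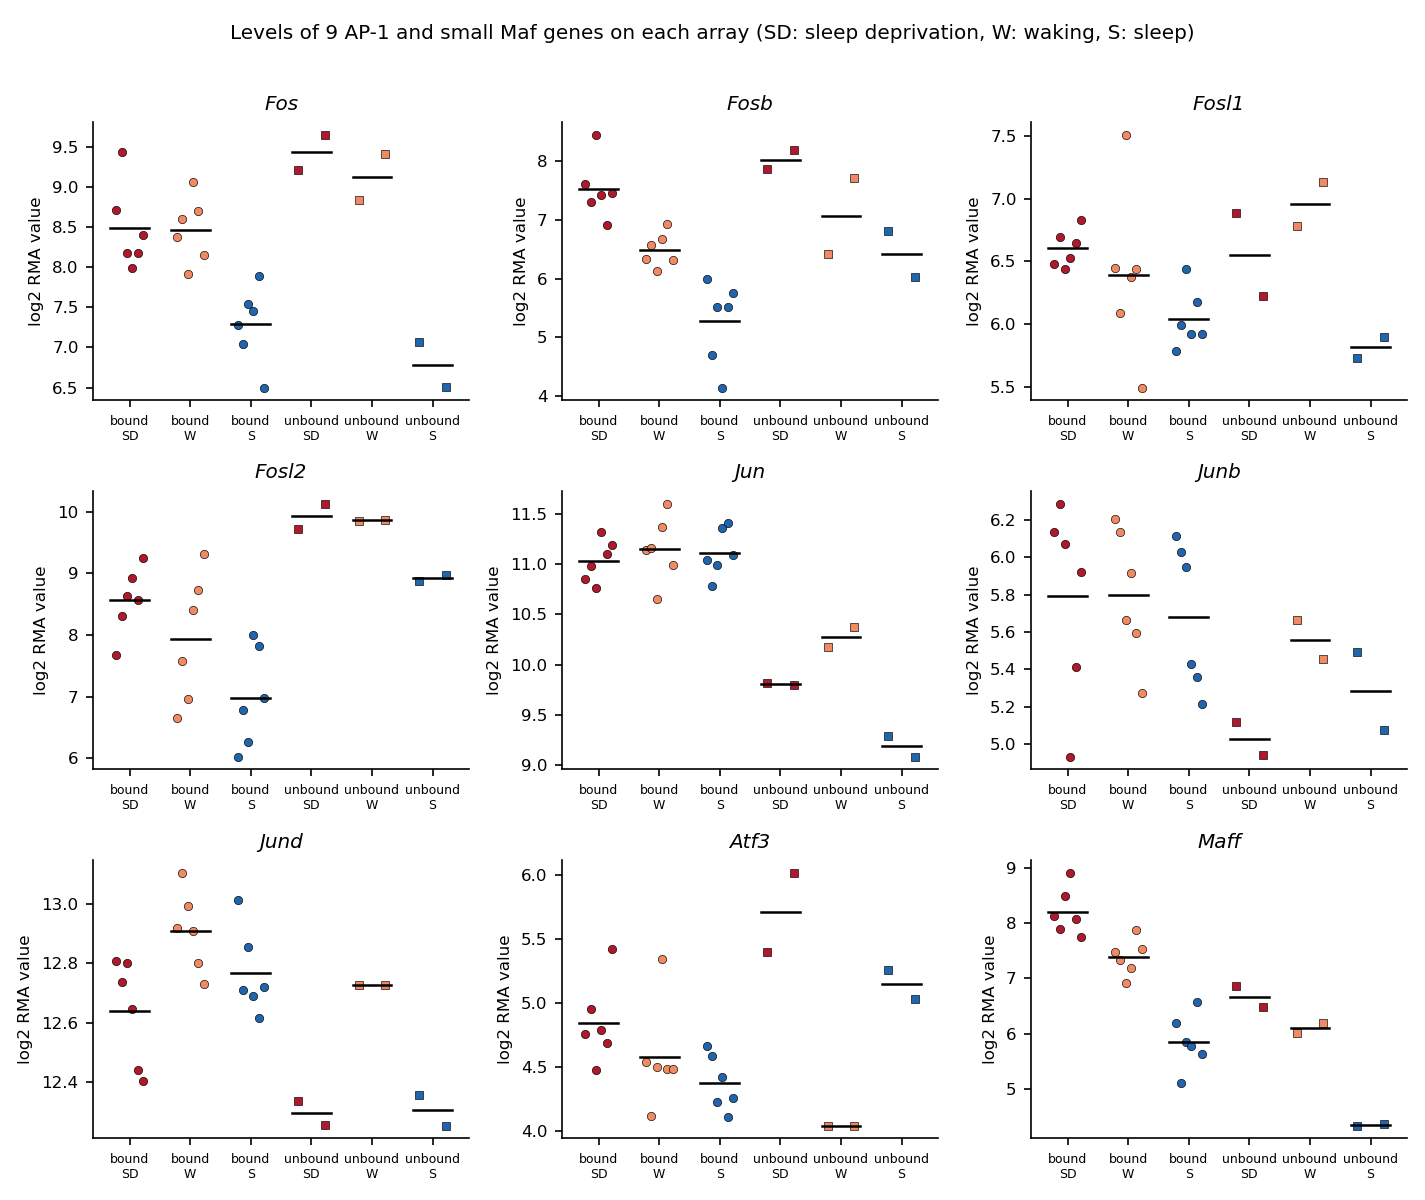
Log2 RMA value of each of the 9 genes on every array, by fraction and state (SD, sleep deprivation; W, waking; S, sleep); points are arrays and bars group means. Fos, Fosb and Maff stand higher in SD and W than in S among the bound arrays, whereas Jun, Junb and Jund lie at similar heights there.

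Fos encodes c-Fos, the founding partner of Jun. In the bound fraction its lowest, median and highest values were 7.99, 8.29 and 9.44 after sleep deprivation, 7.92, 8.49 and 9.06 in waking, and 6.50, 7.37 and 7.89 in sleep. Every array of either wake condition was above every sleep array, although the margin between the lowest waking and the highest sleep array was small. Fos was 2.12-fold higher after sleep deprivation than in sleep (log2 1.09, SE 0.26, adjusted p = 0.00396) and 2.13-fold higher in waking (log2 1.09, adjusted p = 0.00559). Sleep deprivation and waking differed by -0.01 (95% interval -0.55 to 0.54, adjusted p = 0.99), and 2 of 6 sleep-deprived animals were above the waking mean. In the unbound pools Fos was at 9.21 and 9.65 after sleep deprivation, 8.84 and 9.41 in waking, and 6.51 and 7.06 in sleep. It was 5.53-fold higher after sleep deprivation (log2 2.47, SE 0.29, adjusted p = 0.0374) and 4.11-fold higher in waking (log2 2.04, adjusted p = 0.0308) than in sleep. The effect of sleep deprivation was smaller in the bound than in the unbound fraction by 1.38 on the log2 scale, a difference that did not pass the test across all genes (SE 0.50, unadjusted p = 0.00908, adjusted p = 0.114), and passed it without bound sleep deprivation replicate 2 (-1.58, adjusted p = 0.0385).

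Fosb encodes a close relative of c-Fos that also gives the long-lived splice form deltaFosB. Its lowest, median and highest bound values were 6.92, 7.44 and 8.46 after sleep deprivation, 6.12, 6.45 and 6.93 in waking, and 4.14, 5.51 and 5.99 in sleep. The 3 states were stepped, with sleep deprivation at the top and sleep at the bottom, and only the wake conditions touched. Sleep was dim, with a mean of 5.27 against 5.79 for the median probe set of the bound arrays. The size of the bound differences from sleep is therefore uncertain. Fosb was 4.44-fold higher after sleep deprivation than in sleep (log2 2.15, SE 0.29, adjusted p = 4.77e-05) and 2.20-fold higher in waking (log2 1.14, adjusted p = 0.00897). It was 2.02-fold higher after sleep deprivation than in waking (log2 1.01, adjusted p = 0.036), with 6 of 6 sleep-deprived animals above the waking mean. The unbound pools held 7.87 and 8.19 after sleep deprivation, 6.42 and 7.71 in waking, and 6.03 and 6.80 in sleep. There the difference from sleep did not pass the test after sleep deprivation (log2 1.44, adjusted p = 0.108) or in waking (log2 0.35, adjusted p = 0.357), and the waking and sleep pools overlapped. The bound and unbound effects of sleep deprivation differed by 0.71 (95% interval -0.53 to 1.95, adjusted p = 0.701), so that a larger bound response was not shown.

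Fosl2 and Fosl1 encode Fra-2 and Fra-1, Fos relatives that lack the strong activation domain of c-Fos. Fosl2 had lowest, median and highest bound values of 7.68, 8.60 and 9.24 after sleep deprivation, 6.65, 8.0 and 9.32 in waking, and 6.03, 6.88 and 8.0 in sleep. The groups overlapped, and waking spread over the ranges of both others. Fosl2 was 2.77-fold higher after sleep deprivation than in sleep (log2 1.47, SE 0.44, adjusted p = 0.021); without bound sleep replicate 1 the difference was 1.28 with adjusted p = 0.0506. In waking it differed from sleep by 0.87 (adjusted p = 0.194), and with the animal number as a block by the same amount with adjusted p = 0.0205. Animals 4 to 6 had higher Fosl2 than animals 1 to 3 in each state, by 0.70 after sleep deprivation, 1.75 in waking and 1.24 in sleep, an average offset whose size only 3.11% of all genes exceeded. Within animals 1 to 3 the sleep deprivation difference was 1.75, and within animals 4 to 6 it was 1.18. In the unbound pools Fosl2 was at 9.72 and 10.13 after sleep deprivation, 9.85 and 9.87 in waking, and 8.88 and 8.98 in sleep. In waking it exceeded sleep 1.54-fold (log2 0.63, adjusted p = 0.0459), and the difference after sleep deprivation was 0.81 (adjusted p = 0.059). Both wake conditions stood above both sleep pools.

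Fosl1 was at 6.44, 6.59 and 6.83 (lowest, median, highest) in the bound fraction after sleep deprivation, 5.49, 6.41 and 7.51 in waking and 5.79, 5.96 and 6.44 in sleep. The sleep-deprived and sleep arrays just failed to overlap, and the waking arrays covered both. No state difference of Fosl1 was called: after sleep deprivation it was 0.45 (adjusted p = 0.112) and in waking 0.26 (adjusted p = 0.403) against sleep. Without bound waking replicate 3, which was the highest of its group and entered the shared spread, the sleep deprivation difference of 0.45 passed the test (adjusted p = 0.0222). The unbound pools were at 6.23 and 6.88 after sleep deprivation, 6.78 and 7.13 in waking and 5.73 and 5.90 in sleep, differences from sleep of 0.56 (adjusted p = 0.151) and 0.84 (adjusted p = 0.0553).

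Maff, the small Maf member, had the largest difference from sleep of the 9 genes in the bound fraction, in either wake condition. Its lowest, median and highest values were 7.75, 8.11 and 8.91 after sleep deprivation, 6.91, 7.41 and 7.87 in waking, and 5.10, 5.81 and 6.58 in sleep. Both wake conditions lay wholly above sleep and shared only a narrow zone with each other. Maff was 4.74-fold higher after sleep deprivation than in sleep (log2 2.24, SE 0.23, adjusted p = 4.93e-06) and 2.72-fold higher in waking (log2 1.44, adjusted p = 3e-04). It was 1.74-fold higher after sleep deprivation than in waking (log2 0.80, adjusted p = 0.04), with 6 of 6 sleep-deprived animals above the waking mean. The unbound pools repeated the order at lower levels, with 6.48 and 6.86 after sleep deprivation, 6.02 and 6.19 in waking, and 4.34 and 4.37 in sleep. Maff was 4.40-fold higher after sleep deprivation (log2 2.14, SE 0.19, adjusted p = 0.0371) and 2.73-fold higher in waking (log2 1.45, adjusted p = 0.0308) than in sleep. The bound and unbound effects differed by 0.11 for sleep deprivation (95% interval -0.80 to 1.01) and by 0.00 for waking (-0.91 to 0.91). Both unbound sleep pools were dim, below the median probe set of the unbound arrays at 5.64. The size of the unbound differences from sleep, and of these contrasts between fractions, is therefore uncertain.

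The bound calls of Fos, Fosb and Maff against sleep were kept in each of 27 alternative analyses. The excess of sleep deprivation over waking was less firm: the call was lost for Fosb without bound waking replicates 1, 2, 3, 4 or 6 or sleep deprivation replicates 1, 3, 4 or 6 (adjusted p 0.051 to 0.0789), with values of 0.83 to 1.05. For Maff it was lost without bound waking replicates 1, 2, 3, 4 or 6, sleep deprivation replicates 1, 3, 4 or 5, or sleep replicate 3 (adjusted p 0.0511 to 0.0877), with values of 0.66 to 0.83.

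**Figure D2:**
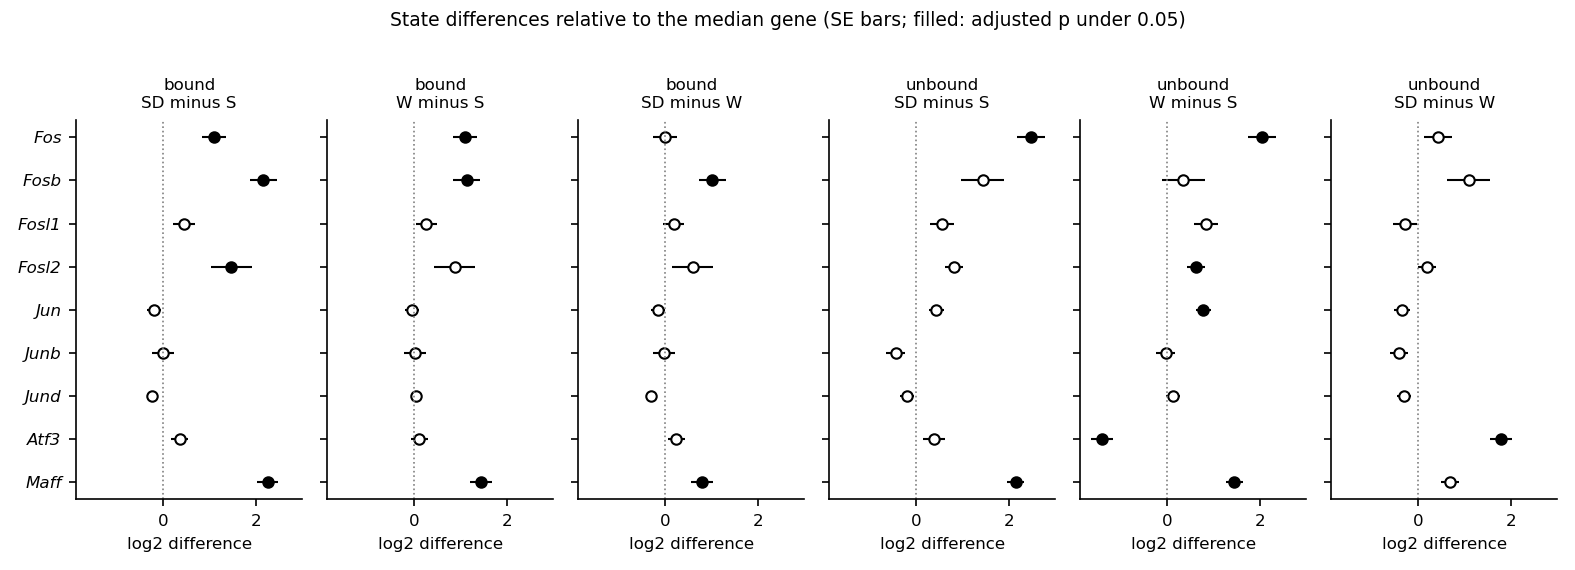
Log2 difference between states for each gene, relative to the median of all genes, in the bound and the unbound fraction; points are estimates, bars are SE, and filled points passed the test. Maff and Fosb lie farthest to the right in the bound comparison of sleep deprivation with sleep, at 2.24 and 2.15, and the Jun genes lie near 0.

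The Jun family, the partners that Fos proteins need, did not follow them in the bound fraction. Jun had lowest, median and highest values of 10.77, 11.04 and 11.32 after sleep deprivation, 10.66, 11.15 and 11.60 in waking, and 10.79, 11.06 and 11.41 in sleep. The 3 groups lay over one another, and the difference from sleep was -0.19 after sleep deprivation (95% interval -0.51 to 0.13, adjusted p = 0.831) and -0.05 in waking (95% interval -0.37 to 0.27, adjusted p = 0.931). In the unbound pools Jun was at 9.79 and 9.82 after sleep deprivation, 10.18 and 10.37 in waking, and 9.09 and 9.29 in sleep. There the 3 states did not overlap, with waking highest. Waking exceeded sleep 1.72-fold (log2 0.78, SE 0.17, adjusted p = 0.0355), and sleep deprivation differed from sleep by 0.44 (adjusted p = 0.0965). The waking effect on Jun was smaller in the bound than in the unbound fraction by 0.83 (difference -0.83, SE 0.29, adjusted p = 0.0334; 3.71% of all genes were called lower in this comparison).

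Junb, whose product competes with c-Jun and weakens it at many promoters, was dim, on average near or below the median probe set of 5.79 in the bound and 5.64 in the unbound arrays. Its bound medians were 6.00 after sleep deprivation, 5.79 in waking and 5.69 in sleep, with ranges of 4.93 to 6.29, 5.27 to 6.20 and 5.22 to 6.12 in the same order. These overlapped throughout, and neither wake condition differed from sleep (-0.00 and 0.02, adjusted p = 0.844 and 0.854). The 95% interval of the sleep deprivation difference was -0.49 to 0.49, below the estimate for Fos. It reflects the spread between arrays only, and the size of any difference is uncertain at so dim a level. In the unbound pools Junb was at 4.94 and 5.12 after sleep deprivation, 5.45 and 5.66 in waking, and 5.08 and 5.49 in sleep, with no state difference called.

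Jund, the Jun member made at a steady level in most cells, was bright in every group. Its bound values were 12.40, 12.69 and 12.81 (lowest, median, highest) after sleep deprivation, 12.73, 12.91 and 13.10 in waking, and 12.61, 12.72 and 13.01 in sleep. Sleep-deprived animals were the lowest as a group, and 0 of 6 were above the waking mean. Sleep deprivation differed from waking by -0.29 (SE 0.10, adjusted p = 0.142), and with the animal number as a block by the same amount with adjusted p = 0.0409. Against sleep the differences were -0.24 (adjusted p = 0.5) and 0.05 (adjusted p = 0.472). As fitted, which is what the adjusted p tests, they were -0.13 and 0.14. Relative to the median gene, the 95% interval for sleep deprivation was -0.455 to -0.0231. The unbound pools were at 12.26 and 12.34 after sleep deprivation, 12.73 in both waking pools and 12.26 and 12.36 in sleep.

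Atf3, a stress-induced partner of Jun proteins that mostly represses, was dim, on average below the median probe set in both fractions. Its bound values were 4.48, 4.77 and 5.42 (lowest, median, highest) after sleep deprivation, 4.12, 4.49 and 5.35 in waking, and 4.11, 4.34 and 4.67 in sleep. The groups overlapped, with differences from sleep of 0.36 (adjusted p = 0.102) and 0.11 (adjusted p = 0.592); without bound waking replicate 4, the highest of its group, the sleep deprivation difference of 0.36 passed the test (adjusted p = 0.0414). In the unbound pools Atf3 was at 5.40 and 6.02 after sleep deprivation, 4.04 in both waking pools, and 5.03 and 5.26 in sleep. It was lower in waking than in sleep (log2 -1.40, SE 0.24, adjusted p = 0.0496) and higher after sleep deprivation than in waking (log2 1.79, adjusted p = 0.0476), and the size of both differences is uncertain at so dim a level in the waking pools. The waking effect was higher in the bound than in the unbound fraction by 1.52 (SE 0.36, adjusted p = 0.034; 1.89% of all genes were called higher there). The 2 waking pools held exactly equal values, so that their spread of 0 is no measure of error.

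In the unbound fraction as a whole, 2 of the 9 genes were higher after sleep deprivation than in sleep (Fos and Maff, beside 1.42% of all genes) and none was lower (0.451% of all genes). In waking 4 were higher than in sleep (Fos, Fosl2, Jun and Maff, beside 5.71% of all genes) and 1 was lower (Atf3, beside 0.605%). Between the wake conditions only Atf3 was called, higher after sleep deprivation (0.242% of all genes). Pools did not overlap, with the wake condition higher, for 7 members after sleep deprivation and 6 in waking, where 42.9% and 55.5% of all genes did the same, and with waking lower for Atf3, beside 9.71%. With 2 pools a state, each of these calls was lost when any 1 pool was left out, as was every other call among all genes within the unbound fraction, and none of the members' called estimates changed direction. For the effect of sleep deprivation, no member differed between fractions by limma's adjusted p, beside 4.89% of all genes. At an unadjusted p under 0.05, 2 of 9 did (Fos and Jun), beside 3011 of 18193 genes. For the effect of waking, Jun and Atf3 did, and both calls were lost without either sleep pool or either waking pool (adjusted p 0.0776, 0.166, 0.077 and 0.161 for Jun, and 0.166, 0.0824, 0.116 and 0.117 for Atf3) and with bound arrays averaged per pool and a pool block (adjusted p = 0.303 and 0.252).

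Over the 3 states, 4 members were higher in the bound than in the unbound fraction, Jun, Junb, Jund and Maff, beside 42.2% of all genes, and 3 were lower, Fosb, Fosl2 and Atf3, beside 27.2%. Maff stood apart from the Fos genes in this: it was 2.43-fold higher in the bound fraction (log2 1.28, SE 0.18, adjusted p = 3.19e-07), and the bound level was above the unbound one in each state. Jun was 2.28-fold higher (log2 1.19, SE 0.12, adjusted p = 1.31e-09), with every bound array above every unbound pool, as for 17.2% of all genes; with the mean of its probe sets Jun differed by 0.49 (adjusted p = 0.000359). Fosl2 was 3.74-fold lower in the bound fraction (log2 -1.90, SE 0.33, adjusted p = 8.62e-05) and Fosb 1.87-fold lower (log2 -0.90, SE 0.24, adjusted p = 0.0105). Fos differed by -0.53 (adjusted p = 0.116), and passed with the arrays quantile normalized again (-0.63, adjusted p = 0.0309), centred on their medians (-0.53, adjusted p = 0.00538) or without bound sleep deprivation replicate 2 (-0.59, adjusted p = 0.0402).

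The small differences between fractions were less stable. Jund was 0.17 higher (adjusted p = 0.000917), which was -0.05 after renewed quantile normalization (adjusted p = 0.451); with arrays centred on their medians its adjusted p was 0.926, and with the mean of its probe sets 0.0562. Junb was 0.31 higher (adjusted p = 0.0262), with adjusted p = 0.0512 after renewed quantile normalization, 0.471 with centring, and 0.0929, 0.0722 and 0.0689 without unbound sleep replicate 2, waking replicate 2 or sleep deprivation replicate 2. Atf3 was lower by 0.52 (difference -0.52, adjusted p = 0.032), a call lost without unbound sleep replicate 1, either waking pool or sleep deprivation replicate 2 (adjusted p 0.0627 to 0.157), and that of Fosb was lost without unbound sleep replicate 1 (adjusted p = 0.0552) or waking replicate 2 (adjusted p = 0.0813).

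**Figure D3:**
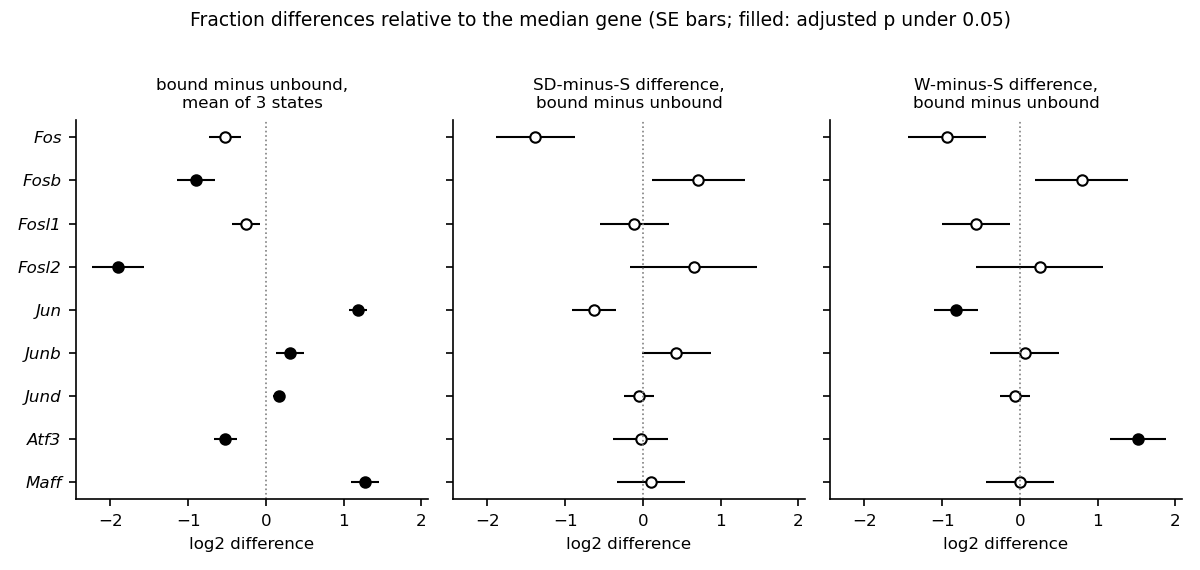
Log2 difference of the bound from the unbound fraction for each gene over the 3 states (left), and of the bound from the unbound effect of sleep deprivation (middle) and of waking (right), relative to the median of all genes; bars are SE and filled points passed the test. At the left Maff (1.28) and Jun (1.19) stand high and Fosl2 (-1.90) and Fosb (-0.90) low, and at the right Jun (-0.83) and Atf3 (1.52) are filled.

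Ordered by mean level, the 6 groups gave a different sequence for Fos and for Maff. Fos was highest in unbound sleep deprivation (9.43), then unbound waking (9.13), bound sleep deprivation (8.48), bound waking (8.47), bound sleep (7.29) and unbound sleep (6.79), and of these neighbours only bound waking and bound sleep did not overlap. Maff was highest in bound sleep deprivation (8.21), then bound waking (7.39), unbound sleep deprivation (6.67), unbound waking (6.11), bound sleep (5.85) and unbound sleep (4.36). Bound and unbound wake groups of Maff were separated, as were unbound sleep deprivation and waking, and bound and unbound sleep. For Jun the 3 bound groups came first and overlapped, followed by unbound waking (10.27), sleep deprivation (9.81) and sleep (9.19), each separated from the next.

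For 4 members a second, dimmer probe set was present. That of Fosl2 gave the same bound result, 1.70 higher after sleep deprivation than in sleep (SE 0.41, adjusted p = 0.00554), and was also lower in the bound fraction (-0.94, adjusted p = 0.0192). In unbound waking it was 0.14 above sleep (adjusted p = 0.26), where the brighter one was at 0.62 (adjusted p = 0.0491), so that the unbound waking call of Fosl2 rests on 1 probe set. The second Jun probe set had a fraction difference of -0.19 that did not pass the test (adjusted p = 0.568), where the brighter one was called higher, so that the fraction call of Jun rests on 1 probe set. The same holds for its unbound waking call and for its waking effect between fractions, which in the second probe set were 0.44 (adjusted p = 0.0826) and -0.57 (adjusted p = 0.344). Both Jun probe sets agreed in showing no called state difference in the bound fraction (-0.20 and -0.34 after sleep deprivation, adjusted p = 0.825 and 0.612).

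For Fosl1 the calls depended on the probe set. The second probe set averaged 4.72 in the bound and 4.50 in the unbound arrays, below the median probe set of each. The size of its differences is therefore uncertain. The dimmer one was higher in the unbound pools after sleep deprivation (2.13, adjusted p = 0.0401) and in waking (1.30, adjusted p = 0.0417), and higher in bound sleep deprivation than in bound waking (0.91, adjusted p = 0.037), none of which the brighter one passed. Its effects of sleep deprivation and of waking were lower in the bound than in the unbound fraction (-1.97, adjusted p = 0.0211, and -2.05, adjusted p = 0.00972). For Jund the second probe set gave 0.38 after sleep deprivation (adjusted p = 0.141) against -0.25 from the brighter one (adjusted p = 0.497), neither called.

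**Figure D4:**
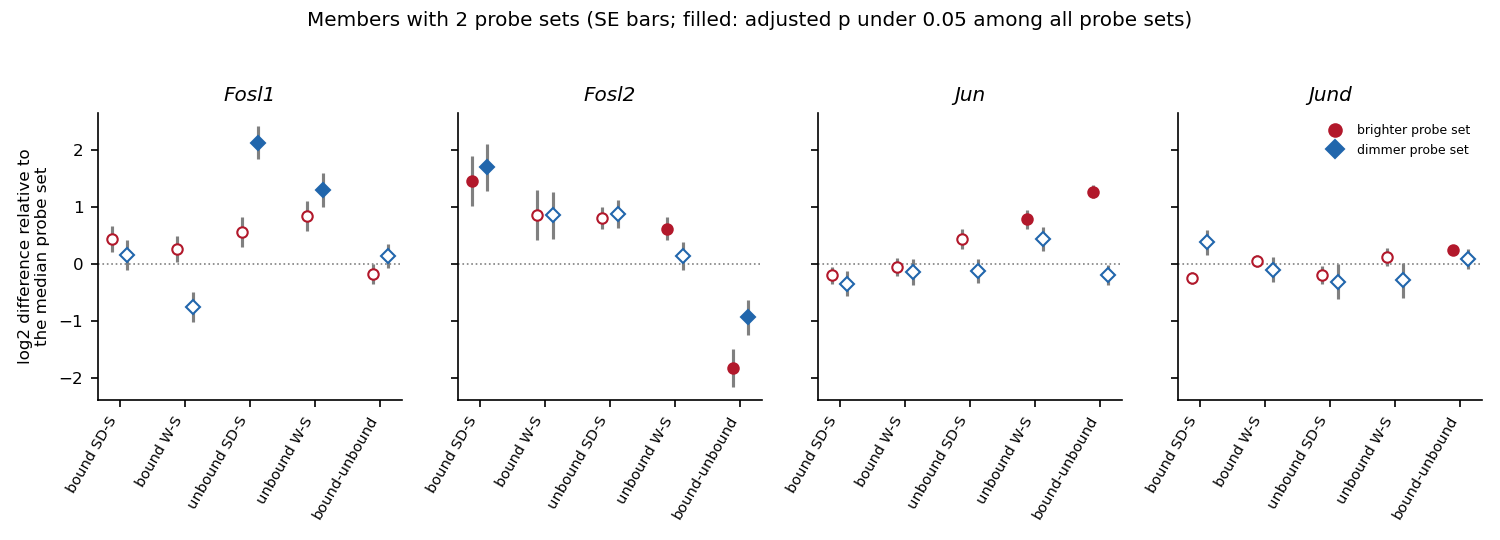
Log2 differences from the probe set used and from the second, dimmer one, for the 4 members that have 2, relative to the median of all probe sets; bars are SE and filled points passed the test. The 2 probe sets of Fosl2 lie close together in the bound fraction, and those of Jun part in the comparison of fractions (1.27 and -0.19).

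The genes whose profiles over the 24 arrays, each centred on its own mean, lay nearest to a member's were found by the root mean square difference. For Fosb they were Nr4a3 (0.59), Egr3 (0.62) and Iapp (0.63), beside its own SD of 1.06; Nr4a3 and Egr3 are themselves early response transcription factors. For Fos they were Dusp4 (0.56), a phosphatase of MAP kinases, Prr27 (0.56) and Gm2629 (0.57), beside an SD of 0.90. For Maff they were Gm19439 (0.63), Gm11827 (0.66) and Adcy10 (0.70), the last a soluble adenylyl cyclase, beside an SD of 1.24. The nearest profile was that of Insyn2a for Fosl2 (0.52, SD 1.19), Ahsa1 for Fosl1 (0.29, SD 0.47), Aamdc for Jun (0.19, SD 0.67), Nedd8 for Junb (0.23, SD 0.425), Ube2d3 for Jund (0.11, SD 0.24) and Rln1 for Atf3 (0.31, SD 0.51).

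Of 16 other bZIP partners measured, 2 were higher in the bound fraction after sleep deprivation than in sleep and 3 in waking, beside 12.3% and 9.07% of all genes, and none was lower in either. Batf, a partner of Jun that lacks an activation domain, was higher in both, with bound means of 5.35 ± 0.26 after sleep deprivation, 5.42 ± 0.29 in waking and 4.46 ± 0.41 in sleep (SD, n = 6 each), differences from sleep of 0.78 (adjusted p = 0.00284) and 0.87 (adjusted p = 0.00205). Nfe2l2, the gene of Nrf2 and a partner of small Maf proteins, was higher after sleep deprivation (0.30, adjusted p = 0.0142). Mafg, the small Maf relative of Maff, was higher in waking (0.51, adjusted p = 0.0375), and so was Jdp2, a Jun partner (0.44, adjusted p = 0.0432); Jdp2 was lower after sleep deprivation than in waking (-0.58, adjusted p = 0.0491). The list medians were -0.05 and 0.10. In the unbound fraction 1 was higher after sleep deprivation, Nfe2 (1.12, adjusted p = 0.0374), and 1 in waking, Mafg (0.86, adjusted p = 0.032), beside 1.42% and 5.71% of all genes. Between fractions 6 were higher and 6 lower in the bound one, beside 42.2% and 27.2% of all genes, with Nfe2l2 at 3.55 (adjusted p = 1.87e-19) and Mafk at 0.72 (adjusted p = 8.09e-06), and Mafg at -0.26 (adjusted p = 0.52).

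Of 18 kinases and factors that act upstream of the members, 1 was higher in the bound fraction after sleep deprivation and 2 in waking, beside 12.3% and 9.07% of all genes, and none was lower. Crem, which gives activators and the early repressor ICER at the cAMP response element, had bound means of 9.16 ± 0.27 after sleep deprivation, 8.19 ± 0.19 in waking and 7.62 ± 0.29 in sleep (SD, n = 6 each). It was 1.43 higher after sleep deprivation than in sleep (SE 0.15, adjusted p = 4.22e-06), 0.48 higher in waking than in sleep (adjusted p = 0.0171) and 0.95 higher after sleep deprivation than in waking (adjusted p = 0.000543). Its effect of sleep deprivation was higher in the bound than in the unbound fraction by 1.45 (SE 0.29, adjusted p = 0.00639). Map2k6, a kinase of the p38 pathway, was higher in waking in both fractions (0.61, adjusted p = 0.00783 bound; 0.62, adjusted p = 0.038 unbound). Srf was higher in unbound waking (0.66, adjusted p = 0.0454). The list medians in the bound fraction were 0.07 and 0.05. Between fractions 13 of the 18 were lower in the bound one, Creb1 (-1.70, adjusted p = 1.09e-09) and Srf (-1.13, adjusted p = 1.32e-06) among them, and 2 were higher, beside 27.2% of all genes lower and 42.2% higher.

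Of 21 genes known as AP-1 targets in other settings, the bound fraction had 4 higher and 1 lower after sleep deprivation (12.3% and 2.02% of all genes) and 3 higher in waking (9.07%), with list medians of 0.12 in both. Hbegf, a growth factor of the EGF family, was higher in both, with bound means of 9.74 ± 0.25 after sleep deprivation, 9.5 ± 0.30 in waking and 9.0 ± 0.26 in sleep (SD, n = 6 each), differences from sleep of 0.63 (adjusted p = 0.00322) and 0.41 (adjusted p = 0.0434). Timp1, an inhibitor of matrix metalloproteinases (0.81, adjusted p = 0.0162), the adhesion receptor Cd44 (0.78, adjusted p = 0.00522) and Mmp9 (0.34, adjusted p = 0.0143) were higher after sleep deprivation, and the chemokine Ccl2 was higher in waking (0.48, adjusted p = 0.0128). The metalloproteinase gene Mmp3 was dim and went in opposite directions, with bound means of 3.91 ± 0.16 after sleep deprivation, 5.03 ± 0.16 in waking and 4.34 ± 0.13 in sleep (SD, n = 6 each). It was lower after sleep deprivation (-0.54, adjusted p = 0.0072) and higher in waking (0.60, adjusted p = 0.000231) than in sleep. In the unbound fraction the same 3 genes, Mmp10, Timp1 and Ptgs2, were higher in each wake condition, beside 1.42% of all genes after sleep deprivation and 5.71% in waking, with list medians of 0.15 and -0.05; Ptgs2, the inducible cyclooxygenase, was 1.88 higher after sleep deprivation (adjusted p = 0.0374) and 1.45 higher in waking (adjusted p = 0.0332). In the bound fraction Ptgs2 was dim, at 3.87 ± 0.52 after sleep deprivation, 3.32 ± 0.43 in waking and 3.23 ± 1.06 in sleep (SD, n = 6 each).

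**Figure D5:**
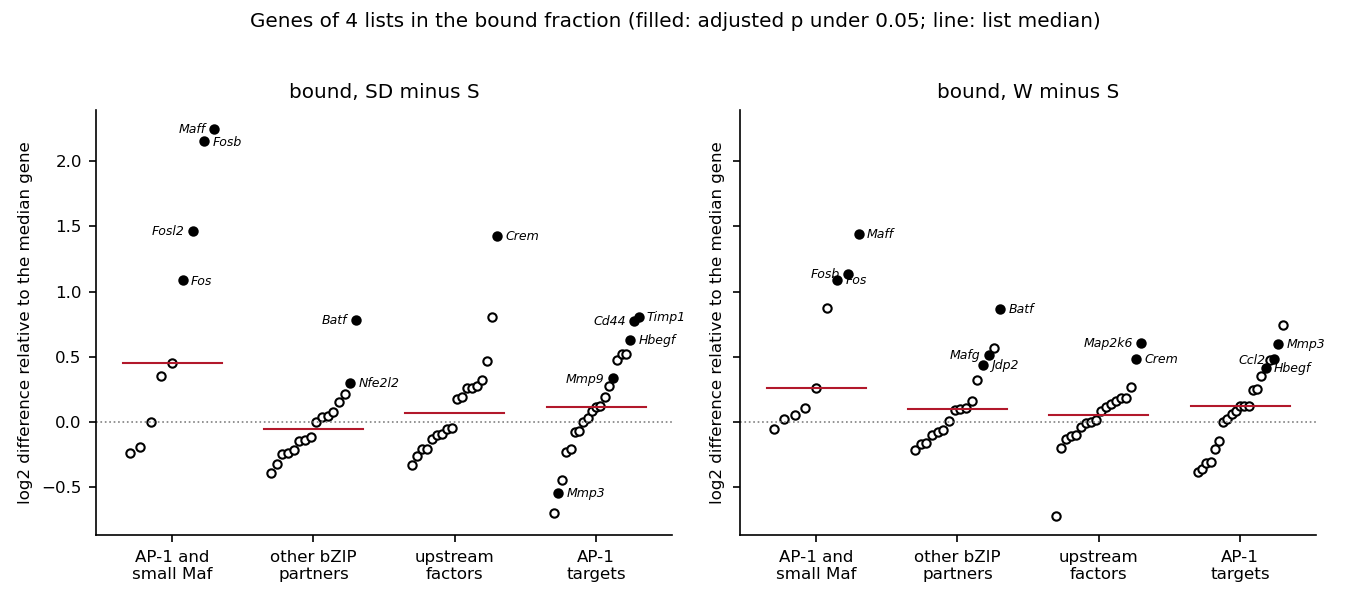
Log2 differences from sleep in the bound fraction, relative to the median of all genes, for the members and the other bZIP partners, upstream factors and AP-1 targets; filled points passed the test and horizontal lines are list medians. The members' median stands at 0.45 for sleep deprivation and 0.26 for waking, and Crem (1.43 and 0.48) is the highest called upstream gene after sleep deprivation.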

How the data were processed

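RNA of the 24 samples was hybridised to Affymetrix GeneChip Mouse Genome arrays. The authors deposited log2 values made with RMA, per the submitters' processing notes; the version, and which arrays were normalized together, are not given in the sources used here. The table held 45101 probe sets with no missing value, of which 34945 had 1 gene symbol in the platform annotation, 932 several and 9160 none. Of several probe sets for a gene, the one brightest on average over all arrays stood for it, which left 18193 genes. Differences were tested with limma 3.58.1 in R 4.3.3 (lmFit, eBayes, Benjamini-Hochberg over all genes): bound comparisons used the 18 bound arrays, unbound ones the 6 pools, and comparisons between fractions all 24 arrays in 6 groups. By the sample titles, the pools hold animals 1 to 3 and animals 4 to 6, the same numbers as the bound arrays. The reported tests between fractions nevertheless treated all 24 arrays as independent, with a shared spread for single animals and pools. Adjusted p-values rest on the fitted differences, and the printed differences are those less the median of all genes.

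The members, lists, comparisons and alternatives were chosen with earlier results of these data known. The genes named are the 9 members, their other probe sets, Aldh1l1, Rpl10a, genes of the listed groups and the 3 nearest profiles of each member. Some genes of those lists were not analysed here. Rpl10a, the gene of the tagged protein, was higher in the bound fraction (1.17, adjusted p = 1.5e-06).

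Animal numbers come from the sample titles. Residuals of bound arrays with the same number correlated with r of 0.268 to 0.53 in 18 of 18 pairs. Pairs with different numbers were not computed. Because the residuals of a group sum to 0, such pairs must covary negatively on average. Bound arrays with the same number therefore shared variation, and what the number stands for was not tested. The reported bound tests used no block, and the blocked value is printed where it changes a call. Residuals of unbound pools with the same number had r of 0.001 to 0.029. Precision is limited by the number of arrays. The alternatives were the replicate block, leaving out dim genes or single arrays, other uses of a gene's probe sets, renewed quantile normalization, median centring, array weights, an intensity trend and a spread shared by all arrays.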

Additional observations from a re-analysis of the deposited data

Results flagged for a closer look

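Among 27 groups of 6 bound arrays (9 genes in 3 states), 1 held an array far from the others: Atf3 in bound waking replicate 4 was at 5.35, with its nearest neighbour at 4.54, a gap of 0.656 of the whole range. Chance marks about 1 group in 20 in this way.

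The effect of waking differed between fractions for Jun and Atf3. For Jun the bound effect less the unbound effect was -0.83 (adjusted p = 0.0334), and for Atf3 it was 1.52 (adjusted p = 0.034) and rested on 2 unbound waking pools with the same value of 4.04. Both calls were lost when any unbound sleep or waking pool was left out, and the second Jun probe set gave -0.57 (adjusted p = 0.344).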

How the results depend on the processing

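Of 1980 member results under alternatives, 1834 kept their side of the threshold, 126 lost the call and 20 gained it. The fitted difference changed sign in 0 called results; relative to the median of all genes, the sign changed for Jund between fractions (-0.05 with renewed quantile normalization) and in 77 results that were not called. The bound calls of Fos, Fosb and Maff against sleep, and the fraction calls of Jun, Fosl2 and Maff, were kept in all 27 and 32 alternatives run for them, with Jun between fractions at 0.49 with the mean of its probe sets. With single arrays left out, the number of members called was 3 to 5 for bound sleep deprivation against sleep, 3 to 3 for bound waking, 0 to 2 for bound sleep deprivation against waking, 4 to 8 between fractions, 0 to 1 for the fraction difference in the sleep deprivation effect and 0 to 2 for that in the waking effect. It was 0 to 0 in each of the 3 unbound comparisons (limma; 3 to 6, 6 to 7 and 2 to 5 at an unadjusted p under 0.05 for sleep deprivation, waking and sleep deprivation against waking), since 1 pool then stands alone and is assumed to vary like the others. With the replicate block, 0 members were called in each unbound comparison (6, 7 and 5 unadjusted; same-numbered pools share only a number). With the block and bound arrays averaged per pool together, 0 were called in the waking effect between fractions (3 unadjusted). In the bound comparisons the block changed the calls of Fosl2 (0.87 for waking, adjusted p = 0.0205) and Jund (-0.29 for sleep deprivation against waking, adjusted p = 0.0409) and no other member's. With dim genes left out and fewer genes tested, the called members were 0 in bound sleep deprivation against waking (3 unadjusted), 0, 3 and 0 in the unbound comparisons (6, 6 and 3 unadjusted) and 0 in the waking effect (2 unadjusted). Fosl2 then also lost its bound sleep deprivation call (1.5, adjusted p = 0.061). Repeated quantile normalization and median centring each left 0 members in unbound waking against sleep (6 unadjusted) and 0 in unbound sleep deprivation against waking (2 and 3 unadjusted), and 1 in the waking effect. For unbound sleep deprivation against sleep, 4 members were called with the mean of a gene's probe sets and 4 with an intensity trend; for sleep deprivation against waking, 2 were called with the trend and 0 with array weights (5 unadjusted). The cause was not tested. Over all genes, the bound count was 2597 for sleep deprivation, 2039 for waking and 1244 between them; it was 334, 142 and 76 without dim genes, and 5063, 4087 and 2606 with every probe set tested. With the block it was 3064 for waking and 1913 for sleep deprivation against waking. The share of higher calls was 85.9% for bound sleep deprivation and 80.9% for bound waking, 55.8% and 53.8% with renewed quantile normalization and 69.2% and 64.9% with centring. Between fractions it was 60.8% as reported and 39.7% with centring.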
